A study of Mus musculus with 11 samples.

Results

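The comparison described here is that of old with young mouse muscle stem cells that received no treatment, across all genes and their functions. Its members are the 5 libraries whose labels give an age and no treatment, of 11 libraries in the series, and 3 of them are young and 2 are aged. Of 32976 genes in the count table, 11212 passed a low-count filter and were tested. The cilium and Hedgehog genes that the paper names (Ift122, Kif3a, Dzip1l, Stil, Ptch1 and Gli2) were left out of the genes described.

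All cells came from the hindlimb muscles of C57BL/6 mice. The young animals were 2 to 4 months old and the aged animals 24 months old by their labels. Cells positive for alpha7 Integrin and CD34 and negative for CD45, Sca1, CD31 and CD11b were sorted and, by the design text of the series, kept on hydrogels for 24 hours, a step that the RNA sequencing methods of the paper do not mention. By that text the values are those of cultured and not of freshly isolated cells. RNA of 5000 to 10000 cells was taken and amplified as cDNA before sequencing. The labels do not say whether libraries of the same age came from separate animals or from pools, so the p-values below measure the spread between these libraries only.

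Muscle stem cells lie under the basement membrane of the muscle fibre, where they rest until injury, and then divide, renew themselves or fuse into new fibres. Pax7 marks them, Myf5 and Myod1 mark their commitment and activation, and Notch signalling together with factors such as Foxo proteins holds them at rest. After isolation they leave rest within a day or so, and in culture they turn on the genes of growth and division. Aged muscle holds fewer of these cells, and they are known to renew themselves poorly.

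The libraries differed in depth and in several further measures that the age labels do not give. The young libraries, replicates 1 to 3, held 7110767, 3356780 and 7198596 counts, and the aged libraries, replicates 1 and 2, held 3797819 and 1276890. Counts on 4 Y-linked genes together were 0, 0 and 497 in the young libraries and 1 and 81 in the aged ones, so young replicate 3 and aged replicate 2 stood apart from the other 3. Xist, the RNA that coats the inactive X chromosome of females, was read in all 5 libraries, at 2365, 1924 and 527 CPM (counts scaled to a common library size, the unit of all levels below) in the young and 2564 and 832 CPM in the aged, although the paper's reporting summary lists the young and aged animals as male. Olfactory receptor genes, which muscle cells are not known to use, summed to 351, 256 and 57.1 CPM in the young libraries and to 23.5 and 703 CPM in the aged ones. Mitochondrially encoded transcripts took from 6.07% to 7.33% of the counts of a library. The aged library with Y-linked counts was thus also the one with the lowest depth and the highest olfactory receptor level, and these cannot be told apart within the aged group.

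The stem cell label was checked against marker genes. The 14 markers of muscle stem cells summed to 1680, 2192 and 2549 CPM in the young libraries and to 1804 and 1834 CPM in the aged ones. Pax7 itself stood at 269, 397 and 188 CPM in young and at 228 and 203 CPM in aged libraries, and Vcam1, an adhesion molecule of these cells, at 238, 243 and 254 CPM and at 215 and 256 CPM. For both genes the ages overlapped. Itga7, which encodes the integrin used in the sort, was at 51.2, 64.2 and 109 CPM in young and 63.9 and 64.5 CPM in aged libraries. Of the cells that the sort removes, Ptprc (the gene of CD45) had 8 counts in young replicate 1 and 0 in the other 4 libraries, and Ly6a (Sca1) had 11, 0 and 1 counts in the young libraries and 0 in both aged ones. Itgam (CD11b) had 12, 0 and 0 counts in young and 10 and 20 in aged libraries, and Pecam1 (CD31) had 24, 10 and 3 counts in young and 40 and 11 in aged libraries, both with the aged libraries above the young ones in CPM.

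Markers of other cells were low beside those of the stem cells. The 13 haematopoietic markers summed to 13.7, 13.7 and 9.49 CPM in young and 11.7 and 18.4 CPM in aged libraries, with 10 and 9 of the 13 at 0 in aged replicates 1 and 2. The 12 endothelial markers summed to 17, 8.36 and 4.31 CPM in young and 12 and 28.4 CPM in aged libraries, with Pecam1 the most abundant in aged replicate 1 and level with Emcn, at 8.45 CPM, in aged replicate 2. Neither list separated the ages as a sum. The 12 fibroadipogenic markers did, at 131, 139 and 150 CPM in young against 104 and 59.1 CPM in aged libraries. Most of that sum was Col3a1, at 102 to 129 CPM in young and 71 and 46.1 CPM in aged libraries, while Pdgfra, the marker that defines these cells, had 15, 0 and 0 counts in young and 0 and 1 in aged libraries. Mature myofibre markers summed to 281, 276 and 353 CPM in young and 207 and 220 CPM in aged libraries, most of it from Eno3, an enzyme of glycolysis, and Ckm was at 0 in all 5. Smooth muscle and pericyte markers (76.5, 109 and 82.3 CPM in young, 77.8 and 86.8 CPM in aged), tenocyte markers (34.9, 36.4 and 32.9 CPM in young, 40.4 and 29.9 CPM in aged) and the 8 Schwann cell and glial markers (9.03, 11.3 and 17.1 CPM in young, 1.91 and 6.91 CPM in aged) completed the check. The sums of the myofibre and the Schwann cell and glial markers were, like the fibroadipogenic one, lower in both aged libraries than in every young one. Without Eno3 the myofibre sum overlapped between the ages, as did the fibroadipogenic sum without Col3a1. In bulk RNA, fewer cells of a type and less RNA per cell cannot be told apart.

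**Figure D1:**
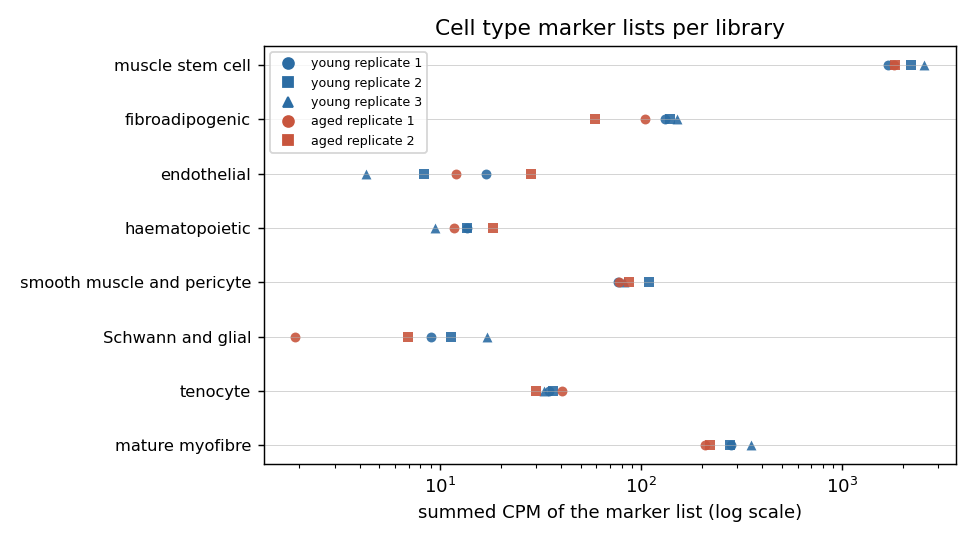
Summed level of each cell type's marker genes, in CPM on a log axis, with a point for each of the 3 young (blue) and 2 aged (red) libraries. Muscle stem cell markers lie between 1680 and 2549 CPM in all 5 libraries, and haematopoietic and endothelial markers lie at or under 28.4 CPM.

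The differences between the ages were small for well-expressed genes and wide but imprecise for weakly expressed ones. With the quasi-likelihood test of edgeR and p-values adjusted by Benjamini-Hochberg, no gene passed 0.05 (0 of 11212, 0%), and the smallest adjusted p was 0.938. At an unadjusted p under 0.05, called nominal from here on, 560 genes (4.99%) were counted, of which 244 (2.18%) were higher and 316 (2.82%) lower in aged cells. DESeq2 on the same genes gave 7 with an adjusted p under 0.05 and limma-voom gave 0. The balance of nominal calls turned with limma-voom, to 300 higher and 203 lower, and higher calls were also the majority in 5 other settings, from 50.9% to 52.7%. The nominal count in edgeR moved to 1433 without aged replicate 1 and to 1372 without aged replicate 2. Both aged libraries lay above all 3 young ones for 1071 genes (9.55%) and below them for 1361 genes (12.1%). With both libraries that held Y-linked counts left out, an alternative chosen after seeing the data that leaves 2 young libraries and 1 aged library, 262 genes had an adjusted p under 0.05 in edgeR and 1871 a nominal one, and the cause of these larger counts was not tested.

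Over all genes tested, the median log2 fold change of aged over young cells was -0.02, the median size 0.37, and the middle 90% of genes ran from -1.42 to 1.20. A size above 1, which is a doubling or its inverse, was fitted for 1799 genes (16% of those tested). Level made most of the difference: this share was 40.2% of 3096 genes with a mean under 10 CPM, 11.7% of 4306 genes from 10 to 50 CPM, 1.75% of 2862 genes from 50 to 200 CPM and 0.211% of 948 genes at 200 CPM and over. At the typical gene the 95% interval reached 1.1 log2 units to each side, so that a doubling could not be told from no difference. For genes at 200 CPM and over it reached 0.58, and for 811 of these 948 genes (85.5%) the whole interval lay between -1 and 1. For these 811 genes a difference between the ages larger than a doubling was outside the interval, as it was for 2512 genes (22.4%) of all levels.

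**Figure D2:**
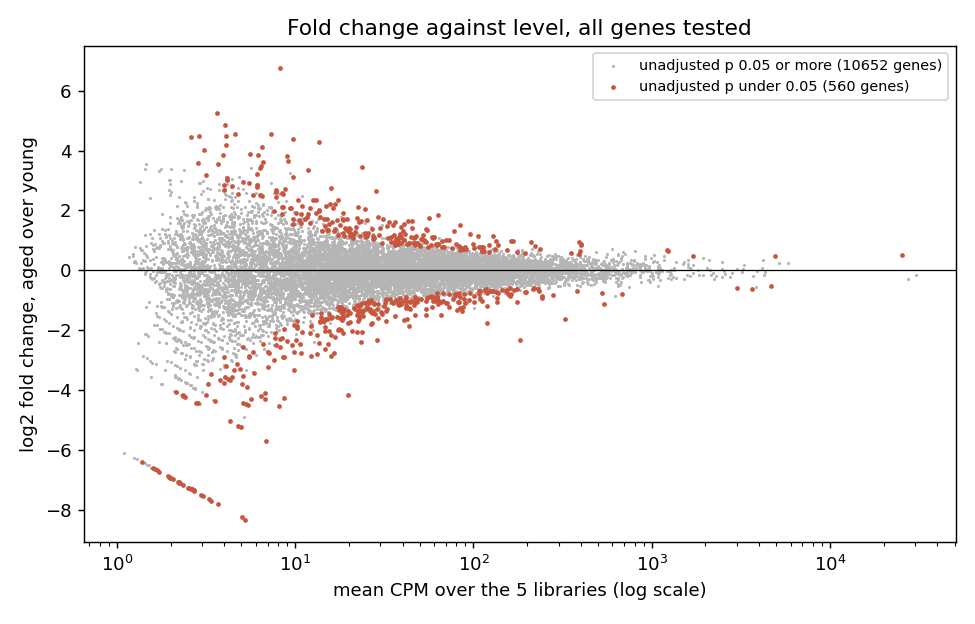
Log2 fold change of aged over young cells for each of 11212 genes against its mean level over the 5 libraries in CPM, on a log axis; red points are the 560 genes with an unadjusted p under 0.05 in edgeR's test. The spread narrows as the level rises, and the separate band near the lower left holds genes with a count of 0 in both aged libraries.

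The genes with the largest differences among those with a mean of at least 20 CPM, a nominal p and no overlap between ages were named first, 12 in each direction. The 12 higher in aged cells ranged in log2 fold change from 1.53 (Sh3bgrl) to 2.66 (Anxa3), and the 12 lower ones from -2.38 (Has3) to -1.68 (Gramd1b). Each adjusted p was 0.938 or 0.939 in edgeR's test with Benjamini-Hochberg adjustment, so none of them passed over all genes.

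Of the genes higher in aged cells, BC067074 had the smallest p. Its level was 33.5, 31.1 and 27.9 CPM in the young libraries and 84.9 and 140 CPM in the aged ones, a log2 fold change of 1.86 (standard error 0.34, from 1.11 to 2.61 at 95%). The 3 young libraries lay close together, and both aged libraries were more than a doubling above them. Anxa3, a calcium-dependent protein that binds membranes, stood at 11.1, 4.48 and 10.9 CPM in young and at 24.8 and 90.6 CPM in aged libraries (2.66, standard error 0.60), with aged replicate 2 far above the rest. Sh3bgrl, which encodes a small protein with an SH3-binding motif, was at 34.7, 59.7 and 50.8 CPM in young and 162 and 115 CPM in aged libraries (1.53, standard error 0.34). An exon of Anxa3 overlaps Gm42603 and 1 of Sh3bgrl overlaps Gm6377, so reads in the overlap had to be divided between them by estimation.

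Slc15a4, a carrier of peptides and histidine in lysosomes, was at 16.7, 12.5 and 5.32 CPM in young and 52.9 and 23 CPM in aged libraries (log2 fold change 1.74, standard error 0.58). Fzd5, a Wnt receptor, was at 13.3, 2.99 and 20.9 CPM in young and 26.5 and 53 CPM in aged libraries (1.64, standard error 0.66). For Fzd5 the gap between the ages was narrow, from 20.9 to 26.5 CPM. Rbck1, a subunit of the complex that builds linear ubiquitin chains, Maff, a small transcription factor of the Maf family, Gcnt4, a glycosyltransferase, Dnajb9, a chaperone partner of the endoplasmic reticulum, and Fam149b were in the same group, as was Ccnd2, which is described with the cell cycle. Slc15a4, Fzd5, Gcnt4, Dnajb9, Fam149b and Ccnd2 each overlap a gene on the opposite strand, and the strandedness of the counting is not stated. The same holds for Dele1, Pon2, Arnt2, Gramd1b and Smarcd1, and for Vcam1 and Itga7, given above. Among genes named further on it holds for Maml1, Foxo1, Sdc3, Plk1, Tk1, Jun, Dusp5, Psmd9, Sf3a2, Snrpd3, Hspe1, Mrpl24, Mrps7, Ctsl, Timp3, Ptgis, Mest, Yap1, Ttn, Aspscr1, Ccnd1, Rrp9, Tnc, Zfp106 and mt-Co1, so the counts of all of these are uncertain.

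Of the genes lower in aged cells, Ext2 and Has3 make the sugar chains of the cell surface. Ext2, a subunit of the enzyme that extends heparan sulfate, was at 91.1, 425 and 289 CPM in young and 66.6 and 39.9 CPM in aged libraries (log2 fold change -2.31, standard error 0.54). Young replicate 1 lay nearer to the aged libraries than to the other young ones. Has3, a hyaluronan synthase, was at 23.3, 50.8 and 29.2 CPM in young and 5.19 and 8.45 CPM in aged libraries (-2.38, standard error 0.58), and shares exon sequence with Chtf8 on the opposite strand. Dele1, which relays mitochondrial stress to the cytosol, was at 32.4, 59.1 and 34.1 CPM in young and 6 and 11.5 CPM in aged libraries (-2.31, standard error 0.54).

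Other lower genes act in mitosis, in transcription and at the cytoskeleton. Haspin, the kinase that marks histone H3 at the centromere in mitosis, was at 44.2, 36.4 and 32.1 CPM in young and 8.19 and 14.6 CPM in aged libraries (log2 fold change -1.76, standard error 0.50). Vgll4, a cofactor that holds back TEAD transcription factors, stood at 23.7, 43.3 and 30.5 CPM in young and 12 and 2.3 CPM in aged libraries (-2.05, standard error 0.65). Tiam1, an exchange factor that activates Rac, was at 39.5, 26 and 18.1 CPM in young and 2.18 and 16.1 CPM in aged libraries (-1.74, standard error 0.77), with aged replicate 2 just under the lowest young library. Pon2, an antioxidant enzyme of membranes, Tedc1, a centriole protein, Arnt2, a partner of PAS-domain transcription factors, Gramd1b, a sterol transfer protein, Hmga1b, a copy of the chromatin protein gene Hmga1, and Xntrpc made up the 12. Counts of Hmga1b (63.6, 115 and 316 CPM in young, 55.7 and 41.5 CPM in aged) may be shared with Hmga1, and those of Xntrpc with Trpc2 and Xndc1, which it overlaps.

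**Figure D3:**
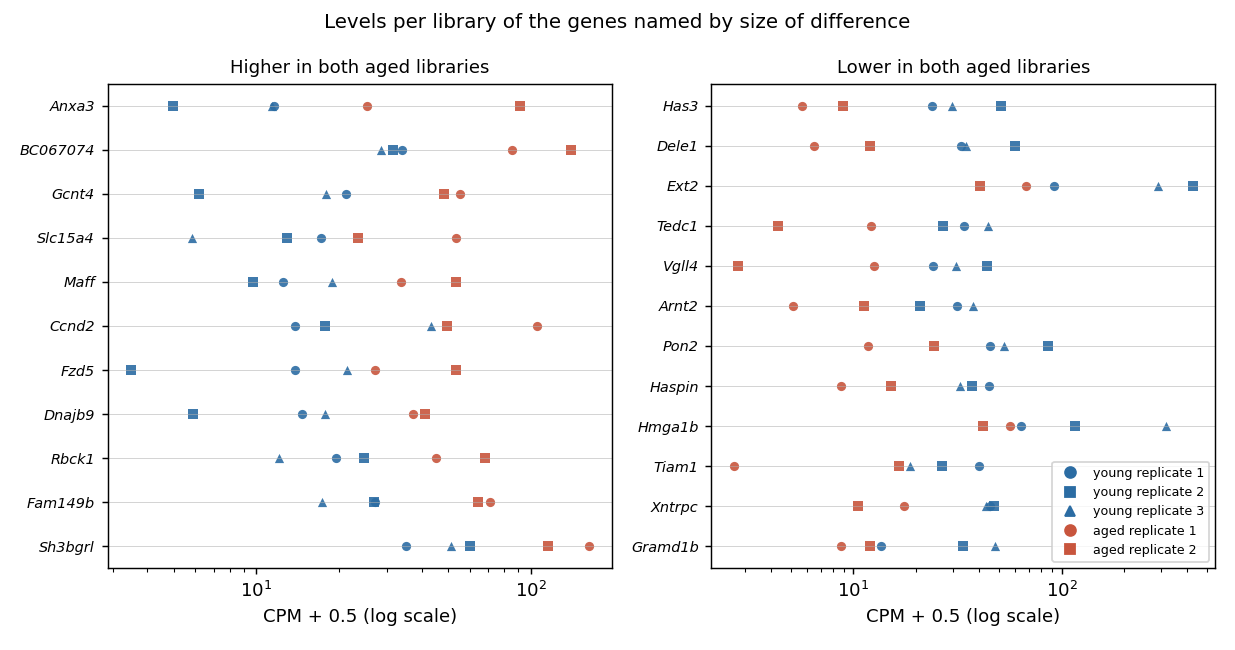
Level in CPM, on a log axis after adding 0.5, of 11 genes higher and 12 genes lower in aged cells, among those with the largest fitted difference, with a point for each young (blue) and aged (red) library. The points of the 2 ages do not overlap for any of these genes, as the rule for naming them required, and the gap is narrowest for Tiam1, at 18.1 against 16.1 CPM.

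A further set of genes was named for the smallest p or for passing with another tool. Atic, which carries out the last steps of purine synthesis, was at 516, 395 and 423 CPM in young and 76.1 and 215 CPM in aged libraries (log2 fold change -1.63, standard error 0.39). Its level per kilobase (40.7) was the highest among the 7 that DESeq2 called, with Ext2, BC067074, Anxa3, Sh3bgrl, Kbtbd4 and the noncoding 5033426O07Rik, and all 7 were also among the 17 called by edgeR without the low-count filter. Kbtbd4, a substrate adaptor of a ubiquitin ligase, had 19.6, 30.8 and 45.3 CPM in young and 2.73 and 0 CPM in aged libraries (-4.16, standard error 0.84) and overlaps Ndufs3 and Ptpmt1 on the opposite strand. The transcript 5033426O07Rik had 3, 0 and 0 counts in young and 28 and 43 counts in aged libraries. Smarcd1, a subunit of the SWI/SNF chromatin remodelling complex, was at 21.5, 19.1 and 34.7 CPM in young and 4.64 and 2.3 CPM in aged libraries (-2.76, standard error 0.65).

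Several calls made without the filter rested on a single library. Slfn1 was at 87.5 CPM and Olfr1402 at 38.4 CPM in aged replicate 2 and neither exceeded 1.19 CPM elsewhere, while Gata4 was at 43.9 CPM and Rasl10b at 27.6 CPM in aged replicate 1 and neither exceeded 0.597 CPM elsewhere. Mapt, at 63 CPM in aged replicate 2 and at most 2.99 CPM in the others, and Aspscr1, at 98.8 CPM in aged replicate 1 and at most 8.21 CPM in the others, were of the same kind. Such values describe 1 library and not an age.

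Functions were described through 55 lists of genes. The median log2 fold change was positive for 32 lists and negative for 23, against -0.02 for all genes tested. For 7 of the 55 lists the median member was higher in both aged libraries than in every young one, and for 10 lower in both. Of all genes tested 9.55% were higher and 12.1% lower in this way. The 7 lists were quiescence, mitochondrially encoded mRNAs, the TCA cycle, nucleotide and one-carbon synthesis, autophagy and lysosome, antioxidant enzymes and the actin cytoskeleton. The 10 were myogenic regulators, differentiation and sarcomere, Notch, growth factor receptor signalling, prostaglandin genes, Hippo and YAP targets, collagens, matrix glycoproteins, zinc finger proteins and solute carriers. The median over all genes tested was itself lower in both, at -0.036 and -0.013 in aged libraries against 0.018, 0.006 and 0.003 in young ones. Solute carriers, at -0.032 in aged replicate 1, were no lower there than all genes. Under 16 alternative settings, which reuse the same libraries, 21 lists kept the sign of their median in each, and every other list turned sign in at least 1. The median weighs each gene alike. Summed levels, which the most abundant members dominate, separated the ages in the same direction for quiescence, mitochondrially encoded mRNAs, Notch and zinc finger proteins among these lists and overlapped or, for prostaglandin genes, were opposite in the others.

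**Figure D4:**
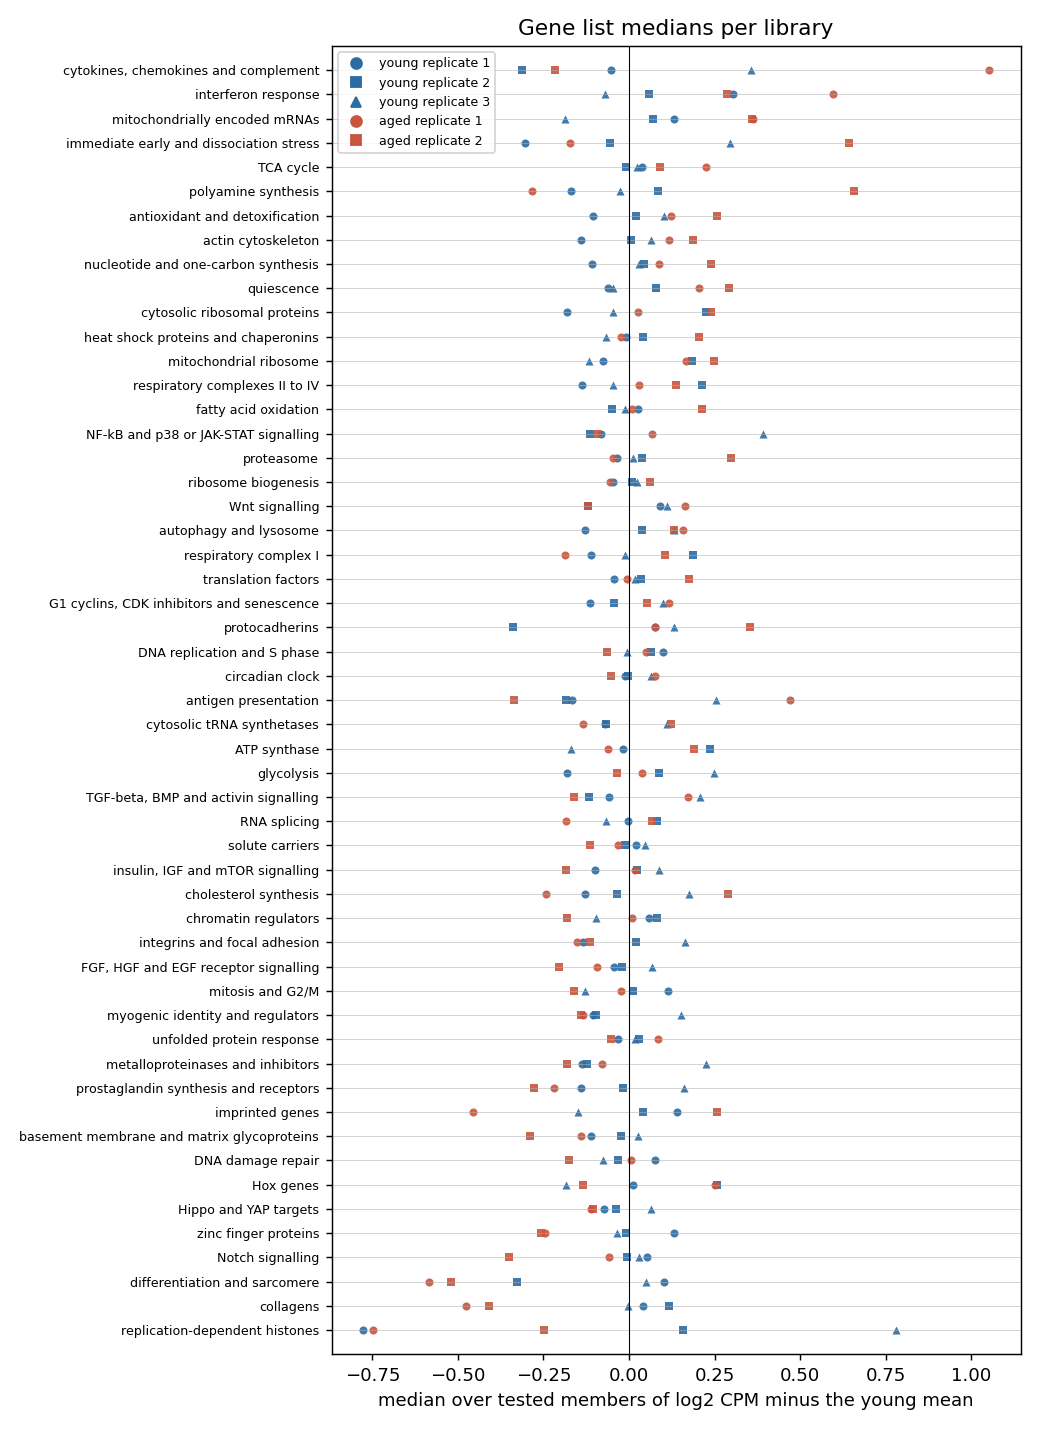
Median over the tested members of each list of log2 CPM minus the mean of the young libraries, with a point for each young (blue) and aged (red) library; lists are ordered by the fitted median. Both red points lie to the right of every blue one for 7 lists, mitochondrially encoded mRNAs among them, and to the left for 10, such as collagens and zinc finger proteins, while replication-dependent histones spread from -0.78 to 0.78 between the young libraries.

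Genes tied to rest leaned higher in aged cells. Of 28 tested members of the quiescence list 17 were higher and 11 lower, with a median of 0.14, and the median member stood at 0.20 and 0.29 in the aged libraries against at most 0.08 in a young one. Nominal differences numbered 3 higher and 0 lower, against 2.18% and 2.82% of all genes. Btg2, which restrains division, was at 4.24, 8.96 and 5.32 CPM in young and 12.3 and 34.6 CPM in aged libraries (log2 fold change 1.91, standard error 0.69). Foxo1, a transcription factor of resting cells, was at 61.7, 75.8 and 67 CPM in young and 123 and 92.1 CPM in aged libraries (0.67, standard error 0.31). Tgfbr3, a co-receptor for TGF-beta ligands, was at 20.2, 29.9 and 25.3 CPM in young and 39.3 and 57.6 CPM in aged libraries (0.94, standard error 0.41). Btg2 is also in the immediate early list. In each of the 3 genes both aged libraries lay above every young one. The list's median stayed positive under all 16 settings and ran from 0.06 to 0.17 with a library left out.

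Notch genes, whose pathway keeps muscle stem cells at rest, leaned the other way. Of 26 tested members 10 were higher and 16 lower, with a median of -0.28, and 0 were higher and 4 lower at a nominal p, against 2.18% and 2.82% of all genes. The median member stood at -0.06 in aged replicate 1 and at -0.35 in aged replicate 2. With a library left out the median ran from -0.53 to -0.11. The genes Hes1, Hey1 and Heyl were listed under both quiescence and Notch. Under PGE2 the Notch median of aged against young cells was -0.08, with 0 members nominal in either direction. The quiescence median there was 0.04, with 2 members nominally higher and 2 lower, against 2.38% and 3.03% of all genes. Spen, a corepressor that acts with the Notch transcription factor, was at 204, 236 and 226 CPM in young and 89.5 and 126 CPM in aged libraries (log2 fold change -1.05, standard error 0.28). Maml1, a coactivator of Notch, was at 100, 118 and 112 CPM in young and 63 and 50.7 CPM in aged libraries (-0.95, standard error 0.31). Jag2, a ligand, was at 21.2, 22.7 and 34.5 CPM in young and 7.64 and 11.5 CPM in aged libraries (-1.48, standard error 0.55). The protease Adam17, which cleaves Notch among many proteins, was lower by the same rule (-0.75, standard error 0.33). The receptor with the highest level, Notch2, did not differ by more than its error (340, 338 and 281 CPM in young, 326 and 313 CPM in aged, log2 fold change 0.001), nor did Hes6, a Notch-related repressor (-0.06, standard error 0.39). Spen overlaps Zbtb17 and Adam17 overlaps Iah1 on the opposite strand.

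Myogenic regulators and muscle structural genes were lower at the median. In the myogenic list 10 of 29 members were higher and 19 lower (median -0.10), and the sign turned when young replicate 3 was left out. Myod1 was at 324, 442 and 406 CPM in young and 333 and 221 CPM in aged libraries (log2 fold change -0.49, standard error 0.28), and Sdc3, a heparan sulfate proteoglycan of stem cells, at 168, 231 and 164 CPM and at 129 and 85.2 CPM (-0.80, standard error 0.31). In the list of differentiation and sarcomere genes 6 of 18 were higher and 12 lower, with a median of -0.37 and with aged values of -0.59 and -0.52 against -0.33 in the lowest young library. With a library left out the median ran from -3.11 to -0.18, and the sum of the mature myofibre markers was lower in both aged libraries as given above. Tnnt2, the troponin T of heart and of immature muscle, was at 134, 166 and 191 CPM in young and 98 and 96 CPM in aged libraries (-0.76, standard error 0.29). Ttn, the giant elastic protein of the sarcomere, was at 818, 860 and 391 CPM in young and 477 and 154 CPM in aged libraries, so that the ages overlapped. Chrng, the fetal subunit of the acetylcholine receptor, had 2.05, 9.55 and 4.89 CPM in young libraries and 0 in both aged ones. Against a floor of 3 counts over both aged libraries this is at least 7.6-fold lower. The alpha subunit Chrna1, at 1052, 1133 and 1044 CPM in young and 1463 and 752 CPM in aged libraries, overlapped.

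Cell cycle lists did not separate the ages. Replication and S phase genes had a median of 0.04, with 25 of 41 higher and a sign that turned without aged replicate 1. Genes of mitosis and G2 had a median of -0.10 with 12 of 43 higher and 31 lower, 0 of them nominally higher and 3 nominally lower against 2.18% and 2.82% of all genes, though the sign turned when young replicate 1 was left out. Cdk1, the kinase that starts mitosis, was at 95.5, 75.2 and 141 CPM in young and 41.8 and 60.7 CPM in aged libraries (log2 fold change -1.04, standard error 0.37). Plk1, a kinase of the spindle poles and centromeres, was at 59.5, 98.8 and 72.3 CPM in young and 40.9 and 42.2 CPM in aged libraries (-0.88, standard error 0.36). Foxm1, the transcription factor of mitotic genes, was at 178, 221 and 217 CPM in young and 122 and 142 CPM in aged libraries (-0.64, standard error 0.27). The ages did not overlap for these 3, but they did for Mki67, a marker of dividing cells, at 2868, 2469 and 1824 CPM in young and 2965 and 1258 CPM in aged libraries. Tk1, a thymidine kinase of S phase, was higher at 89.8 and 67.6 CPM in aged libraries against 45, 46.6 and 41.7 CPM in young ones (0.83, standard error 0.33).

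The list of G1 cyclins, inhibitors and senescence genes had a median of 0.06, with 2 of 30 members nominally higher and 2 lower against 2.18% and 2.82% of all genes. Ccnd2, a D-type cyclin, was at 13.3, 17.3 and 42.7 CPM in young and 105 and 49.1 CPM in aged libraries (log2 fold change 1.66, standard error 0.52), whereas Ccnd1, whose level per kilobase was 452 against 4.82 for Ccnd2, differed little (0.03, standard error 0.23). Trp53, the tumour suppressor p53, was at 515, 705 and 661 CPM in young and 433 and 309 CPM in aged libraries (-0.75, standard error 0.26), and Sesn1, a target of p53 that restrains growth signalling, was higher at 27.8 and 25.3 CPM against 14.6, 4.78 and 11.1 CPM (1.37, standard error 0.58). Bax, a killer protein of mitochondria, overlapped between the ages (17.2, 51.7 and 41 CPM in young, 3 and 20 CPM in aged). DNA repair genes had a median of -0.18, with 17 of 43 higher, and with a library left out it ran from -0.232 to -0.004. At a nominal p 0 were higher and 2 lower against 2.18% and 2.82% of all genes. The lower ones were the excision repair genes Ercc3 (-0.88, standard error 0.39) and Ercc4 (-2.10, standard error 0.81).

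Replication-dependent histones, made in S phase, had the lowest median of all lists, -0.47, with 5 of 29 tested members higher and 24 lower. Their sum per library was 234, 447 and 678 CPM in young and 261 and 309 CPM in aged cells. The ages overlapped, since young replicate 1 lay below both aged libraries, and the median member spread from -0.78 to 0.78 among the young libraries alone. At a nominal p 0 were higher and 5 lower, against 2.18% and 2.82% of all genes, and 4 of these 5 encode histone H2B, so H2B was looked at apart, a choice made after the values were seen. Of 11 H2B genes 2 were higher and 9 lower with a median of -1.15, against -0.40 for 7 H2A genes, -0.36 for 4 H3 genes, -0.43 for 2 H4 genes and -0.30 for 5 H1 genes.

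Hist1h2bn was at 11.1, 17.6 and 13.4 CPM in young and 1.09 and 0 CPM in aged libraries (log2 fold change -4.25, standard error 1.06). Hist1h2bl was at 33.6, 60.9 and 93.3 CPM in young and 13.6 and 32.2 CPM in aged libraries (-1.50, standard error 0.53), and Hist1h2bj at 4.51, 7.76 and 13.2 CPM and at 0 and 1.54 CPM (-3.90, standard error 1.51). Both aged libraries lay below every young one in these 3 genes and in Hist1h2bf, narrowly so in Hist1h2bl (33.6 against 32.2 CPM) and Hist1h2bf (0.684 against 0.546 CPM). Hist1h2bk, at 6.02, 25.4 and 43.3 CPM in young and 3.55 and 9.98 CPM in aged libraries, overlapped (-1.97, standard error 0.84). H2B genes share near-identical coding sequence, so the division of reads among them is uncertain. The direction was not shared by all H2B genes, as Hist1h2br reached 31.5 CPM in aged replicate 2 and had no count in aged replicate 1.

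The promoters shown are those of the 4 nominally lower H2B genes, of which Hist1h2bk overlapped between the ages. All 4 were found in the RefSeq promoter table (build GRCm38.p6, 300 bases each, printed 5′ to 3′ on the strand of the gene). Capitals mark matches, on either strand, to CCAAT, to ATTTGCAT (the octamer known from H2B promoters) and to TATAAA. Hist1h2bn lies at chr13:21753826-21754125 on the plus strand, Hist1h2bl at chr13:21716134-21716433 on the minus strand, Hist1h2bj at chr13:22042948-22043247 on the plus strand and Hist1h2bk at chr13:22035571-22035870 on the plus strand.
Hist1h2bn: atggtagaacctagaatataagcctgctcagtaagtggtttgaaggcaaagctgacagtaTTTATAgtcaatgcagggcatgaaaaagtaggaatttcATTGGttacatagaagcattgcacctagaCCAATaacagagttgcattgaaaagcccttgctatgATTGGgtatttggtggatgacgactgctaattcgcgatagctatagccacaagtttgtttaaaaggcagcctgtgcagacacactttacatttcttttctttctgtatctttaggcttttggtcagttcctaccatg
Hist1h2bl: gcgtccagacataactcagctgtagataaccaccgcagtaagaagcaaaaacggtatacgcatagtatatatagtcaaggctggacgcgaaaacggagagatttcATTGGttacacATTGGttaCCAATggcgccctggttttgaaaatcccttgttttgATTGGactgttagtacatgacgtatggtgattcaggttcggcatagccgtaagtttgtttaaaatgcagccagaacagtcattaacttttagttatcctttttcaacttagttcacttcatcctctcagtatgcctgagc
Hist1h2bj: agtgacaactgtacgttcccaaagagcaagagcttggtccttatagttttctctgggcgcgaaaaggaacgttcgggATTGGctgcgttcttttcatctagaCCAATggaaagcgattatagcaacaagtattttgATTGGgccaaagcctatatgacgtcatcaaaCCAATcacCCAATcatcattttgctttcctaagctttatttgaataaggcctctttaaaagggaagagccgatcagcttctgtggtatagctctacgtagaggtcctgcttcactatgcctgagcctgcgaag
Hist1h2bk: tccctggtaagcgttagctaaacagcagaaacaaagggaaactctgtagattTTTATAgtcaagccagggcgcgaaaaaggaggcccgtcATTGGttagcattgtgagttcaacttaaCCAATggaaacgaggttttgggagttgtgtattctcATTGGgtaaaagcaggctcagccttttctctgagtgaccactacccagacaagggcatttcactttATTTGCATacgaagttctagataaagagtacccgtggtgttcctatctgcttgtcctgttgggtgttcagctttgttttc
CCAAT was matched in all 4, with 3, 4, 5 and 3 matches in the order printed, and in all 9 of the H2B genes with a promoter in the table, against 37.4% of 32851 promoters. The exact octamer was matched in Hist1h2bk alone of the printed ones and in 4 of the 9, against 1.74% of all promoters. TATAAA was matched in Hist1h2bn and Hist1h2bk and in 5 of the 9, against 13.6%. A match describes the letters only. The window of Hist1h2bn spans the gap to the start of Hist1h2ak, an H2A gene on the opposite strand that was also nominally lower (log2 fold change -2.35, standard error 1.07).

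Energy genes of the mitochondrial genome leaned higher in aged cells while nuclear respiratory genes had medians near 0. Of 13 mitochondrially encoded mRNAs 9 were higher and 4 lower, with a median of 0.28, which stood at 0.36 in each aged library against at most 0.13 in a young one, and 3 were nominally higher and 0 lower against 2.18% and 2.82% of all genes. The subunit mt-Nd2 of respiratory complex I was at 282, 328 and 251 CPM in young and 526 and 571 CPM in aged libraries (log2 fold change 0.94, standard error 0.24). The core subunit of cytochrome oxidase, mt-Co1, was at 4345, 4110 and 4306 CPM in young and 6333 and 5459 CPM in aged libraries (0.47, standard error 0.19), and mt-Atp8 at 8.75, 12.8 and 20.9 CPM and at 33.6 and 29.9 CPM (1.17, standard error 0.51). Other transcripts of the same genome, mt-Nd1 (-0.04), mt-Atp6 (-0.04) and mt-Co3 (-0.16), did not share the difference and were picked after the values were seen. The overlap of mt-Atp8 with mt-Atp6 makes its count uncertain. Under PGE2 the list's median was -0.87 for aged against young cells, but its sum varied widely within each age and the ages overlapped, at 29576, 8788 and 14391 CPM in young and 7975, 20784 and 9679 CPM in aged treated libraries.

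**Figure D5:**
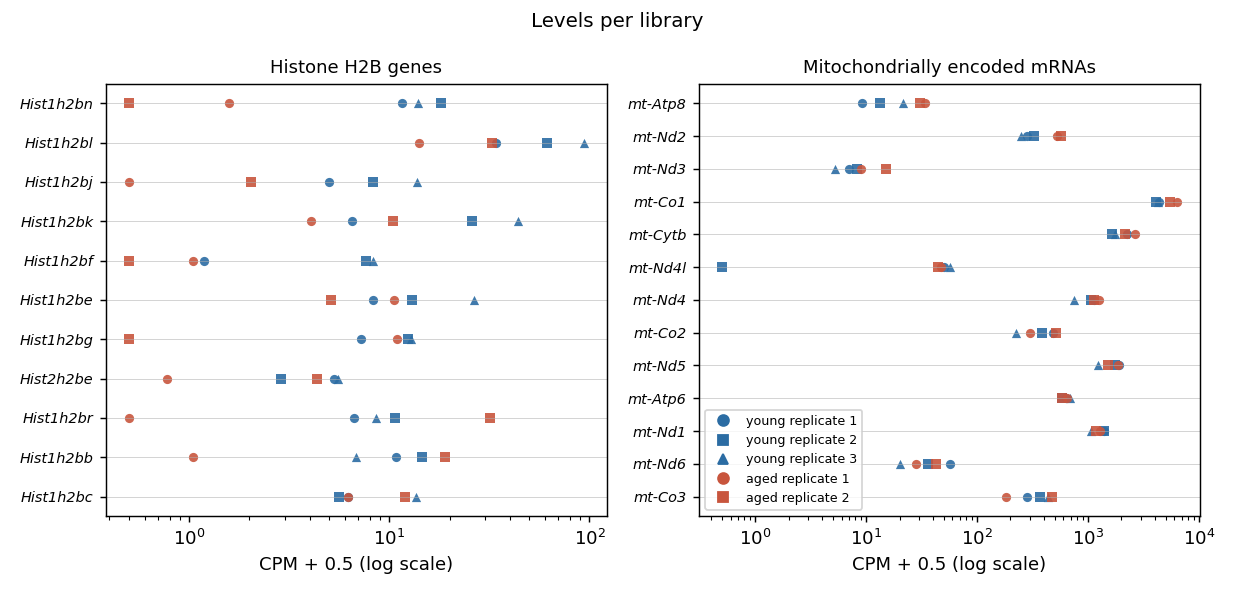
Level in CPM, on a log axis after adding 0.5, of the 11 tested histone H2B genes (left) and the 13 mitochondrially encoded mRNAs (right), with a point for each young (blue) and aged (red) library. Hist1h2bn separates the ages most clearly among H2B genes, from 11.1 to 17.6 CPM in young and at most 1.09 CPM in aged libraries, and mt-Nd2 among the mitochondrial ones.

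Nuclear genes of respiratory complex I had a median of 0.07, those of complexes II to IV 0.11 and those of the ATP synthase 0.01. The ATP synthase median kept its sign in 9 of 16 settings. It turned under upper-quartile scaling and without young replicate 3 or aged replicate 2, among others. The median of complex I turned sign in 4 of 16 settings and ran from -0.26 to 0.27 with a library left out. Ndufa4, a small subunit linked to complexes I and IV, was the only nominal member of these lists, with 36, 24 and 17 genes tested, against 4.99% of all genes. It was at 62.5, 74.6 and 42.9 CPM in young and 25.9 and 33 CPM in aged libraries (log2 fold change -1.03, standard error 0.40). Both aged libraries lay below every young one for 7 of the 36 complex I genes and above for 1, against 12.1% and 9.55% of all genes. Mitochondrial ribosomal proteins were higher in 49 of 77 (median 0.12), with Mrpl24 (0.87, standard error 0.37) and Mrps7 (0.72, standard error 0.32) nominally so and 0 nominally lower against 2.18% and 2.82% of all genes. The TCA cycle had a median of 0.22 with 15 of 24 higher and no nominal member, against 4.99% of all genes. With a library left out this median ran from 0.037 to 0.228. Fatty acid oxidation had a median of 0.10 that kept its sign in 12 of 16 settings and turned with limma-voom, among others. In that list Cpt2, the inner-membrane enzyme that brings fatty acids into mitochondria, was at 22.4, 29.9 and 22.6 CPM in young and 6.82 and 5.37 CPM in aged libraries (-2.003, standard error 0.57). Cpt1a, its outer-membrane partner, was also lower in both aged libraries than in every young one, without a nominal p (-0.29, standard error 0.25), and Ppard, a nuclear receptor that drives this pathway, was at 55.9, 60.3 and 73.6 CPM in young and 38.8 and 26.1 CPM in aged libraries (-0.95, standard error 0.37).

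Glycolysis was level, with a median of 0.01 that kept its sign in 9 of 16 settings and turned under upper-quartile scaling and limma-voom, among others. Ldha overlapped between the ages (890, 1172 and 2307 CPM in young, 1068 and 1401 CPM in aged). Nucleotide and one-carbon synthesis had a median of 0.15 with 17 of 24 higher, so that Atic, described above, went against its list. Cholesterol synthesis had a median of -0.08 that kept its sign in 11 of 16 settings and ran from -0.44 to 0.14 with a library left out. Sc5d, a desaturase of the pathway, was nominally higher (1.31, standard error 0.53). Polyamine synthesis had a median of 0.17 that rested on aged replicate 2 and turned sign without it. Odc1, the enzyme that starts the pathway, was at 1485, 1553 and 1399 CPM in young and 1788 and 2332 CPM in aged libraries (0.48, standard error 0.22), and Amd1, which supplies the aminopropyl donor, at 85.1, 83.6 and 68.3 CPM and at 111 and 157 CPM (0.76, standard error 0.30). Oaz2, an antizyme that holds Odc1 down, was at 22.2, 67.2 and 28.6 CPM in young and 9.28 and 17.7 CPM in aged libraries (-1.58, standard error 0.60).

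Protein synthesis genes were slightly higher at the median and none of the cytosolic ribosomal proteins differed nominally, against 4.99% of all genes. Of these 78 proteins 53 were higher and 25 lower (median 0.13), against 5482 higher and 5730 lower of all genes tested. The median ran from 0.015 to 0.217 with a library left out. But the young libraries alone spread from -0.18 to 0.23 and the ages overlapped. Ribosome biogenesis had a median of 0.09 that turned sign without aged replicate 2, and its only nominal member, Rrp9, was lower (-1.59, standard error 0.67). Translation factors had a median of 0.07 and cytosolic tRNA synthetases 0.02, the latter with a sign that depended on the scaling. Pabpc1, the protein that coats poly(A) tails, was at 4224, 4175 and 4284 CPM in young and 1994 and 3487 CPM in aged libraries (log2 fold change -0.63, standard error 0.25), and Etf1, which ends translation, at 307, 290 and 360 CPM and at 386 and 624 CPM (0.66, standard error 0.27). The young values of Pabpc1 lay within a few percent of each other, and the aged ones did not. Splicing genes had a median of -0.04 that turned sign without aged replicate 1. At a nominal p 1 of 66 members was higher and 3 lower, against 2.18% and 2.82% of all genes. Of these, Sf3a2, a component of the U2 particle, was at 16.3, 17.9 and 34.2 CPM in young and 4.37 and 3.84 CPM in aged libraries (-2.45, standard error 0.66). Hnrnpll (-0.69, standard error 0.28) and Hnrnpul1 (-0.86, standard error 0.34), both RNA-binding proteins, were the others, and Snrpd3, a core Sm protein, was nominally higher (1.19, standard error 0.53).

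Among protein folding and turnover lists, the unfolded protein response had 1 of 26 members nominally higher and 1 lower. Of 29 heat shock and chaperonin genes 2 were nominally higher and 0 lower, and of 36 proteasome genes 1 and 1. Of all genes 2.18% and 2.82% were so. The unfolded protein response had a median of -0.11 that turned sign in 4 of 16 settings, among them leaving out aged replicate 2. Dnajb9 was at 14.2, 5.37 and 17.3 CPM in young and 36.6 and 40.7 CPM in aged libraries (log2 fold change 1.63, standard error 0.54), while Xbp1, the transcription factor that drives such genes, was at 59.6, 53.4 and 66.3 CPM and at 39.6 and 19.2 CPM (-0.99, standard error 0.41). Hspa5, the main chaperone of the endoplasmic reticulum, was at 1376, 1225 and 1089 CPM in young and 688 and 1026 CPM in aged libraries (-0.52, standard error 0.25). The list thus did not move as a unit. Heat shock proteins had a median of 0.12, with Hspe1 (0.77, standard error 0.29) and the co-chaperone Stip1 (0.57, standard error 0.25) nominally higher, although without aged replicate 2 the sign turned. The proteasome had a median of 0.10 that also turned sign without aged replicate 2, with Psmd9, an assembly factor, at 18.5, 22.4 and 20.4 CPM in young and 79.1 and 36.9 CPM in aged libraries (1.52, standard error 0.43). Psma3, a subunit of its core, differed the other way, at 27.6, 23 and 17.8 CPM in young and 9.55 and 9.98 CPM in aged libraries (-1.22, standard error 0.54).

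Autophagy and lysosome genes had a median of 0.08. Gabarap, which coats autophagosomes, was at 16.5, 19.4 and 46.6 CPM in young and 101 and 43.8 CPM in aged libraries and overlapped, while Ctsl, a lysosomal protease, was at 398, 458 and 493 CPM and at 225 and 340 CPM (log2 fold change -0.68, standard error 0.27). Atp6v0d1, a subunit of the pump that acidifies lysosomes, was at 27.8, 41.5 and 46.9 CPM in young and 63.3 and 72.2 CPM in aged libraries (0.81, standard error 0.37). Antioxidant and detoxification genes had a median of 0.16 with 21 of 32 higher, and it ran from 0.046 to 0.187 with a library left out. Gsr, which restores reduced glutathione, was at 94.2, 101 and 154 CPM in young and 193 and 273 CPM in aged libraries (0.99, standard error 0.31), and Gstm1, which uses glutathione, at 77, 127 and 166 CPM and at 74.2 and 60.7 CPM (-0.86, standard error 0.36). These 2 genes differed in opposite directions, and the list held no other nominal member.

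Immediate early and dissociation stress genes had a median of 0.27, with 19 of 25 higher, and the sign turned without aged replicate 2, where the median member stood at 0.64 against -0.17 in aged replicate 1. Jun, a component of AP-1, was at 104, 118 and 151 CPM in young and 191 and 210 CPM in aged libraries (log2 fold change 0.69, standard error 0.28), and Ier3, an early response gene, at 7.93, 4.78 and 4.75 CPM and at 20.7 and 20 CPM (1.80, standard error 0.64). Dusp5, a phosphatase that turns off nuclear ERK, was lower at 21.3 and 12.3 CPM against 33.2, 36.4 and 42.6 CPM (-1.12, standard error 0.46). The share of these differences that arose in the sort was not tested.

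Immune and interferon genes were few and variable. Of 22 tested interferon response genes 16 were higher and 6 lower, with a median of 0.55 that kept its sign under all 16 settings, but aged replicate 2 (0.29) lay inside the young range, whose highest value was 0.30. Lgals3bp, a secreted glycoprotein, was at 10.1, 5.37 and 6.04 CPM in young and 49.4 and 10.7 CPM in aged libraries (log2 fold change 2.08, standard error 0.66), which rests largely on aged replicate 1. Antigen presentation had a median of 0.02 that kept its sign in 12 of 16 settings and turned under upper-quartile scaling, among others. H2-D1, a class I molecule, was at 53.2, 77.6 and 83.8 CPM in young and 138 and 177 CPM in aged libraries (1.14, standard error 0.31), while B2m, its light chain, did not differ by more than its error (0.02, standard error 0.30).

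Of 39 listed cytokine, chemokine and complement genes 10 were tested, with a median of 0.62 that turned negative without aged replicate 1. Spp1, the matrix cytokine osteopontin, was at 1069, 952 and 1004 CPM in young and 2240 and 587 CPM in aged libraries, and Csf1, a macrophage growth factor, at 1870, 2247 and 2701 CPM and at 3666 and 1832 CPM. Both were thus high in aged replicate 1 and low in aged replicate 2. Vegfa, the endothelial growth factor, was lower at 80 and 108 CPM against 180, 117 and 155 CPM (-0.68, standard error 0.31). The NF-kB, p38 and JAK-STAT list had a median of 0.10 that kept its sign in 10 of 16 settings. It turned with limma-voom and without young replicate 1, aged replicate 1 or aged replicate 2, among others.

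Matrix genes were lower at the median. Of 16 tested collagens 6 were higher and 10 lower (median -0.40), with the median member at -0.48 and -0.41 in the aged libraries against 0.00 in the lowest young one, and the sign turned without young replicate 2 and with at least 10 counts required in every library. Col3a1, a fibrillar collagen, was at 102, 122 and 129 CPM in young and 71 and 46.1 CPM in aged libraries (log2 fold change -0.99, standard error 0.33), and Col1a2 at 5.47, 6.57 and 8.63 CPM and at 0 and 1.54 CPM (-3.56, standard error 1.55). Both are also in the fibroadipogenic marker list, whose sum was lower in both aged libraries as given above, and the part of such cells in the difference was not tested. Col5a2, a collagen that resting stem cells make, was at 218, 170 and 209 CPM in young and 242 and 213 CPM in aged libraries and overlapped.

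Basement membrane and matrix glycoproteins had a median of -0.17, with 10 of 26 higher, 0 nominally higher and 3 nominally lower against 2.18% and 2.82% of all genes. Lama5, a laminin chain, was at 45.5, 51.7 and 50.9 CPM in young and 31.9 and 10.7 CPM in aged libraries (log2 fold change -1.16, standard error 0.47), and Postn, a matrix protein of injured tissue, at 5.33, 6.57 and 6.47 CPM and at 0.819 and 0.768 CPM (-2.89, standard error 1.27). Of the abundant members, Sparc was lower in both aged libraries than in every young one without a nominal p (-0.32, standard error 0.23), and Tnc overlapped (0.01, standard error 0.26). Integrin and focal adhesion genes had a median of -0.09, and metalloproteinases and their inhibitors -0.12, a sign that turned without young replicate 3 and without aged replicate 2. In that list Timp3, an inhibitor bound to the matrix, had 8.21, 2.69 and 9.92 CPM in young and 0.819 and 0 CPM in aged libraries (-3.67, standard error 1.42). Actin cytoskeleton genes had a median of 0.15 with 26 of 38 higher and no nominal member, against 4.99% of all genes.

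Prostaglandin synthesis and receptor genes, 11 of 21 tested, had a median of -0.14 that ran from -1.65 to -0.01 with a library left out and turned sign in 2 of 16 settings. Their summed level went the other way, at 333, 371 and 377 CPM in young and 463 and 414 CPM in aged libraries. Ptgis, the prostacyclin synthase, had 4.51, 5.37 and 7.05 CPM in young libraries and no count in either aged one, at least 9.39-fold lower against a floor of 3 counts over both aged libraries. The floor covers counting error only.

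Among growth factor pathways, Wnt genes split evenly (17 of 34 higher, median 0.09 with a sign that turned in 11 of 16 settings). Lrp6, a Wnt co-receptor, was at 237, 163 and 184 CPM in young and 122 and 102 CPM in aged libraries (log2 fold change -0.79, standard error 0.29), in the direction opposite to Fzd5, and Axin1, a scaffold that destroys beta-catenin, was at 166 CPM in aged replicate 2 and between 18.5 and 35.2 CPM in the other 4 libraries. TGF-beta, BMP and activin genes had a median of -0.03 that turned sign with DESeq2, limma-voom and RLE scaling, with Smad5, which carries BMP signals, nominally lower (-0.66, standard error 0.28) and Tgfbr3, given above, nominally higher. The FGF, HGF and EGF receptor list had a median of -0.10 with 0 of 31 nominally higher and 3 lower against 2.18% and 2.82% of all genes. Of these, Map2k1, the kinase MEK1, was at 69.6, 77.6 and 76.8 CPM in young and 40.7 and 49.1 CPM in aged libraries (-0.74, standard error 0.33), and Dusp4, a phosphatase that turns off MAP kinases, at 48.1, 52 and 53.6 CPM and at 23.7 and 32.2 CPM (-0.89, standard error 0.38).

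The insulin, IGF and mTOR list had a median of -0.08, with Igf2r, which clears IGF2 and carries lysosomal enzymes, at 201, 201 and 185 CPM in young and 90.3 and 125 CPM in aged libraries (log2 fold change -0.87, standard error 0.28). Its nominally higher members were Foxo1 and Sesn1, given above, and the sign of the median turned without young replicate 1, young replicate 3 or aged replicate 2. The Hippo list had a median of -0.19, and its members again differed in opposite directions. Yap1, its effector, was at 92.5, 89 and 93.6 CPM in young and 159 and 127 CPM in aged libraries (0.65, standard error 0.28), while Tead4, a partner of YAP in muscle cells, had 6.43, 4.78 and 24.4 CPM and 2.46 and 0 CPM (-2.99, standard error 1.21) and Vgll4 was lower as given above. The YAP targets Ankrd1 (0.10, standard error 0.24) and Ccn1 (0.06, standard error 0.25) were within their errors. Circadian clock genes had a median of 0.02 with no nominal member, against 4.99% of all genes.

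Large families were taken whole. Of 279 tested zinc finger proteins 101 were higher and 178 lower, with a median of -0.23, and the median member stood at -0.25 and -0.26 in the aged libraries against -0.04 in the lowest young one. Both aged libraries lay below the young ones for 46 members and above them for 13, out of 279, where all genes had 12.1% and 9.55%. At a nominal p 1 of 279 was higher and 7 lower, no more than the 2.18% and 2.82% of all genes, and the sum of the family was 9632, 9231 and 9155 CPM in young and 8547 and 8489 CPM in aged libraries. The sign held under all 16 settings, from -0.28 to -0.19 over DESeq2, limma-voom and the other scalings and from -0.46 to -0.17 with a library left out. Under PGE2 the median of aged against young cells was -0.08. Zfp61, at 4.38, 12.5 and 9.64 CPM in young and 0.546 and 0 CPM in aged libraries (log2 fold change -4.50, standard error 1.37), and Zfp189, at 7.66, 11 and 9.49 CPM and at 1.36 and 0 CPM (-3.42, standard error 1.20), were examples at low level. The abundant Zfp106, an RNA-binding protein needed by muscle and nerve, was the same within error (-0.01, standard error 0.22).

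Solute carriers, the membrane transporters, had a median of -0.06 over 161 tested genes, with 5 nominally higher and 4 lower against 2.18% and 2.82% of all genes. Slc5a5, the iodide transporter, had 0.41, 0 and 0.288 CPM in young and 7.64 and 4.61 CPM in aged libraries. Slc25a4, which exchanges ATP and ADP across the inner mitochondrial membrane, was at 241, 277 and 327 CPM in young and 401 and 336 CPM in aged libraries (log2 fold change 0.39, standard error 0.25), and its relative Slc25a5 overlapped between ages. Chromatin regulators had a median of -0.09 with no nominal member among 45, against 4.99% of all genes. Hox genes had a median of -0.19 and protocadherins 0.06, and each kept its sign in 10 of 16 settings. The Hox median turned under limma-voom, among others. With a library left out the Hox median ran from -0.50 to 0.21 and the protocadherin median from -1.02 to 0.34. Imprinted genes, expressed from a single parental copy, had a median of -0.15. With a library left out it ran from -0.92 to 0.01, and its sign turned without young replicate 3. Peg10 was at 300, 223 and 370 CPM in young and 156 and 160 CPM in aged libraries (-0.91, standard error 0.29), Mest at 32.3, 30.8 and 25.2 CPM and at 12.3 and 13.8 CPM (-1.18, standard error 0.48), and Ndn, a growth suppressor of the MAGE family, at 7.66, 3.88 and 2.59 CPM and at 29.5 and 19.2 CPM (2.36, standard error 0.67). Peg10 and Mest are both read from the paternal copy, as is Ndn, so the direction was not shared among paternally expressed genes. Of 1017 olfactory receptor genes 14 passed the filter (median 0.27, of the other sign with limma-voom). The median member of the 14 was highest in aged replicate 2 (1.81) and, of the young libraries, in replicate 2 (1.62). The sum over all 1017 was highest among the young libraries in replicate 1, at 351 CPM.

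Transcript length was set beside these values. The genes were cut into 4 groups of equal size by exon length. In the group with the shortest exon sequence, up to 2991 bases, the median log2 fold change was 0.04, in the next groups -0.003 and -0.03, and in the longest, from 7241 bases, -0.06. The gradient was steepest in aged replicate 2, where the median member stood at 0.12 in the shortest and -0.13 in the longest group, against -0.04 and -0.01 in aged replicate 1. Young replicate 1 ran the other way, from -0.08 to 0.10. Ribosomal and respiratory genes are short as a rule and matrix genes long, and the part of length in their medians was not tested.

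The same contrast was set beside the 6 libraries treated with PGE2 (prostaglandin E2, 10 ng/ml for 24 hours), which share no library with the untreated ones. There, 0 of 9630 genes had an adjusted p under 0.05 in edgeR (0%), and 229 (2.38%) were nominally higher and 292 (3.03%) lower in aged cells. Of 9551 genes tested in both, 52.1% had the same direction, and Pearson's r across genes was 0.0499, where genes are not independent replicates. Of the 462 genes with a nominal p in untreated cells 56.5% had the same direction. Of these 462 genes 31 were also nominal under PGE2 in the same direction and 11 in the opposite one. Over all genes tested under PGE2, 2.38% and 3.03% were nominally higher and lower. The genes named next were picked from these after the values were seen. Gsr (0.99 untreated and 0.84 treated), Ccnd2 (1.66 and 1.26) and Tgfbr3 (0.94 and 1.21) were higher in aged cells with and without PGE2. Tiam1 (-1.74 and -3.41), Peg10 (-0.91 and -0.68), Ttn (-1.12 and -0.70), Ppard (-0.95 and -0.91), Dusp4 (-0.89 and -1.03) and Vegfa (-0.68 and -0.54) were lower in both. In opposite directions were mt-Nd2 (0.94 and -1.27), Rbck1 (1.61 and -1.30), Tedc1 (-2.06 and 1.28) and Sf3a2 (-2.45 and 1.54). No age by PGE2 interaction passed over 12619 genes (0, 0%, edgeR with Benjamini-Hochberg adjustment), so a difference between the 2 contrasts was not shown for any of these genes.

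The limits of these data are set by their size. With 3 young and 2 aged libraries, most genes could differ by a doubling or more and not be told from no difference, and of 55 list medians 45 kept their sign without aged replicate 1 and 36 without aged replicate 2. Sex-linked, olfactory receptor and depth differences ran within both groups. The cells had, by the design text, been cultured for 24 hours, and their RNA was amplified, so levels in muscle are not described. Values are RNA levels only, and neither protein nor the share of cells behind a difference was measured. The gene lists hold well-studied members of each function and not all of them.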

How the data were processed

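RNA of sorted muscle stem cells was sequenced after amplification as cDNA. The authors aligned reads to the mouse genome (build mm10) with STAR and deposited counts per gene estimated with RSEM by the labels, or with RSEM or Salmon by the paper. The estimated counts were not normalized as deposited, and were rounded before any fit. The annotation release and the strandedness of the counting are not given in the sources used here. Symbols came from GENCODE M21, which matched 31980 of 32976 identifiers.

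Genes passing edgeR's filterByExpr were scaled by TMM (factors from 0.968 to 1.04) and fitted with the quasi-likelihood method of edgeR 4.0.16 in R 4.3.3, with DESeq2 1.42.0 and limma-voom (limma 3.58.1) as alternatives and Benjamini-Hochberg adjustment throughout. Tests were two-sided. Standard errors were taken as the size of the log2 fold change over the root of its F statistic. The code was tested on simulated data. Tables were made with Python 3.11.15, pandas 2.3.3 and numpy 2.4.6. Other alternatives were RLE and upper-quartile scaling, no filter, at least 10 counts in every library, each library left out, a replicate block, all 4 groups in 1 fit, a Y-linked covariate and thinning to the smallest library. Leaving out both libraries with 10 or more Y-linked counts was added after seeing the data.

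The cilium and Hedgehog genes of the paper and sex-linked genes aside, named genes were the 12 protein-coding or lncRNA genes with the largest difference in each direction among those with a mean of at least 20 CPM, an unadjusted p under 0.05 and ages that did not overlap, the 10 with the smallest p, up to 10 passing with DESeq2 and up to 10 passing without the filter, for each of 55 lists up to 4 members with the smallest p under 0.05 and the 2 with the highest level per kilobase, and markers of the sort. This made 232 genes. The members and lists were chosen with earlier results of these data known. Per-library list values are medians over members of log2 CPM, with a prior count of 2, minus the young mean. Of the treated libraries, 2 young columns share a name and were called a and b. A few named genes are not reported here.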

Additional observations from a re-analysis of the deposited data

How the results depend on the processing

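The count of genes past an adjusted p of 0.05, 0 in edgeR, was 0 with limma-voom and with the other scalings, 7 with DESeq2, 17 with no low-count filter and 262 with both libraries holding Y-linked reads left out. With a single library left out it ran from 0 to 6, the highest without aged replicate 2. The count at an unadjusted p under 0.05, 560, was 954 with no low-count filter, where 21424 genes were tested, 323 after thinning to the smallest library and 1871 with both libraries holding Y-linked reads left out, and it ran from 331 (without young replicate 2) to 1433 (without aged replicate 1). Leaving out an aged library leaves a single aged library, so that the spread came from the young ones and the lone library was assumed to vary like them. With the replicate number as a replicate block it was 324. Correlations of same-numbered libraries were -0.0786 and 0.00248 after group means were removed. With 2 aged libraries the aged deviations mirror each other, so these values cannot tell whether the numbers pair libraries. The higher share of these calls was 43.6% in edgeR, 46.9% with DESeq2, 49.8% with RLE scaling, 39.1% with upper-quartile scaling, 59.6% with limma-voom, 51.3% with no low-count filter, 52.7% with at least 10 counts in every library, 52% without young replicate 3, 52.3% after thinning and 50.9% with both libraries holding Y-linked reads left out.

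Of 121 named genes with an unadjusted p under 0.05, 119 kept their direction in every setting in which they were fitted, 89 of the 121 with at least 10 counts in every library and 109 after thinning. The 121 were picked by their p in the same libraries that the settings reuse. A kept direction was thus largely fixed by that choice and is no separate evidence. Mapt, at a log2 fold change of 4.295, ran from -2.437 (without aged replicate 2) to 5.328 (without aged replicate 1) and was -2.877 with both libraries holding Y-linked reads left out. Olfr263, at 3.83, ran from -5.873 to 4.831 for the same libraries and was -6.317 with both left out. In PGE2-treated libraries 1 named gene passed with DESeq2 (Tiam1), and from 0 to 1 passed with a library left out (Olfr263 without young replicate a). The cause was not tested for any of these. Aged replicate 2, with 1276890 counts, limits what can be seen at low level.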
